A study of Mus musculus with 6 samples.

Results

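The synaptic vesicle and release machinery was taken as 37 genes that encode SNAREs, synaptotagmins, vesicle membrane proteins and active zone proteins, and every probe set annotated to exactly 1 of these symbols was used. All 37 genes were on the array, with 99 of the 45037 probe sets, a probe set being several short probes for 1 transcript. They stood among 18193 genes with a probe set of their own. Brain RNA came from 6 female littermates aged 123 days, 1 Affymetrix mouse array for each animal. The knockout group held 4 mice without melanotransferrin (MTf -/-, strain given as C57BL/6 - Lucy) and the wild-type group 2 mice (MTf +/+, C57BL/6). Melanotransferrin is an iron-binding membrane protein encoded by Meltf, and how its gene was inactivated is not stated in the sources used here. Signals are the authors' linear intensities. Fold changes are knockout minus wild type on the log2 scale after 49.6 was added to every signal, so that those of dim probe sets are understated, and SE is their standard error.

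When an action potential reaches a nerve terminal, calcium enters and a docked vesicle fuses with the membrane. Fusion is driven by the zippering of the SNAREs, with synaptobrevin on the vesicle and SNAP-25 and syntaxin on the membrane, and synaptotagmins on the vesicle sense the calcium. Complexins clamp and promote fusion, NSF with its SNAP adaptors takes the spent SNARE complex apart, and RIM, Munc13, bassoon and piccolo hold and prime vesicles at the active zone. These genes are used across neurons, but paralogues differ by region: Vamp1 and Syt2 are known from brainstem, spinal cord and cerebellar neurons with fast transmission, and Unc13c from cerebellar granule cells.

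Knockouts 1, 2 and 3 and wild type 1 each stood apart from other arrays in a marker list or in the share of dim signals. The part of this in the members' values was not tested. In knockout 2, 9 of the 10 cerebellar granule cell markers and 6 of the 8 Purkinje cell markers had their lowest signal, and the summed signals of these lists were 11399 and 19344 against 49953 to 72851 and 57836 to 78644 on the other 5 arrays. The granule cell gene Gabra6 read 87.6 there and 6938 to 15711 elsewhere. The hindbrain and spinal list summed to 2290 and 1804 in knockouts 1 and 2 against 4090 to 5773 elsewhere. The hypothalamus and pituitary list summed to 19463 in knockout 3 against 2832 to 8659 elsewhere. Its growth hormone gene Gh read 5930 there and 109.6 to 381.4 elsewhere, and its prolactin gene Prl 3690 and 7.8 to 320.5. Its hypothalamic genes did not all follow. Avp read 709.1 there and 29.3 to 213.8 elsewhere. Pmch and Hcrt read 4822 and 1124 there, near the wild types at 4710 and 4274 for Pmch and 1071 and 1143 for Hcrt. In wild type 1, 24.5% of probe sets lay below the added 49.6, against 17.6% to 20.2% on the others. General neuronal markers were present on all arrays. Their summed signals were lowest in knockout 1 and wild type 1, at 191172 and 196801 against 218820 to 228180 on the others. The members' summed signals were lowest on the same arrays, at 420606 and 410417 against 451835 to 478698. Meltf was dim, at 80.7 to 155.9 in the knockouts and 146.5 and 228.7 in wild type, so the groups overlapped; whether its probes lie in the inactivated part is not stated. Since this is bulk tissue, fewer cells of a type and less RNA per cell cannot be told apart.

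No member passed the threshold in either direction. At the brightest probe set of each gene the estimated differences were mostly small, but their intervals often reached further. The limma adjusted p was at least 0.743 for all 37 brightest probe sets, and 0 of the 99 probe sets passed 0.05 when adjusted over all 45037, where the share called over the whole array was 0%. Without wild type 2, which leaves 1 wild-type array, 3 of the 99 passed, beside 0.380% of the whole array. The log2 fold changes of the brightest probe sets ran from -0.61 for Syt2 to 0.46 for Syt3, with a median of 0.094 beside 0.024 over all genes. The 95% interval lay between -1 and 1 for 34 of the 37, or 91.9%, beside 68.2% of all genes, and between -0.5 and 0.5 for 17, or 45.9%, beside 23.2%. A dim filter that drops the dimmest 40% of probe sets kept 36 of the 37. Among all genes past it these shares were 82.7% and 31.1%. Within -0.5 to 0.5 also lay 51.0% of other release genes, 70.0% of vesicle recycling genes and 80.0% of vesicle proton pump genes. The 3 members outside -1 to 1 were Syt2, Syt3 and Sv2c.

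At an unadjusted p below 0.05, limma gave 10 of the 99 member probe sets, 9 higher and 1 lower in the knockout, where 4.92% and 1.84% of all probe sets did so. None of these 10 was the brightest of its gene. Of the 9 higher ones, 8 had their lowest signal in wild type 1, as did 69.9% of all probe sets that were higher at this limit. The 10 became 4 without wild type 1, where 3.61% of all probe sets passed, and 20 without wild type 2, where 11.8% did. The groups did not overlap for 8 of the 37 genes at the brightest probe set, or 21.6%, beside a background of 16.2%. Without wild type 1 this was 16 genes, beside 36.4% of all genes, and without wild type 2 it was 19, beside 52.8%, since fewer arrays must then separate. Of the 8 genes, 6 lay above wild type (background 9.59%) and 2 below it (6.56%). Positive log2 fold changes were found for 25 of 37 genes with the authors' scaling. This was 67.6%, beside 53.6% of all genes and 48.6% of those past the dim filter. After each array was centred on its median it was 9 of 37, for which no share over all genes is given. That step moved the median of all genes from 0.024 to -0.19. The median of the members stayed 0.07 above that of all genes in both cases.

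**Figure D1:**
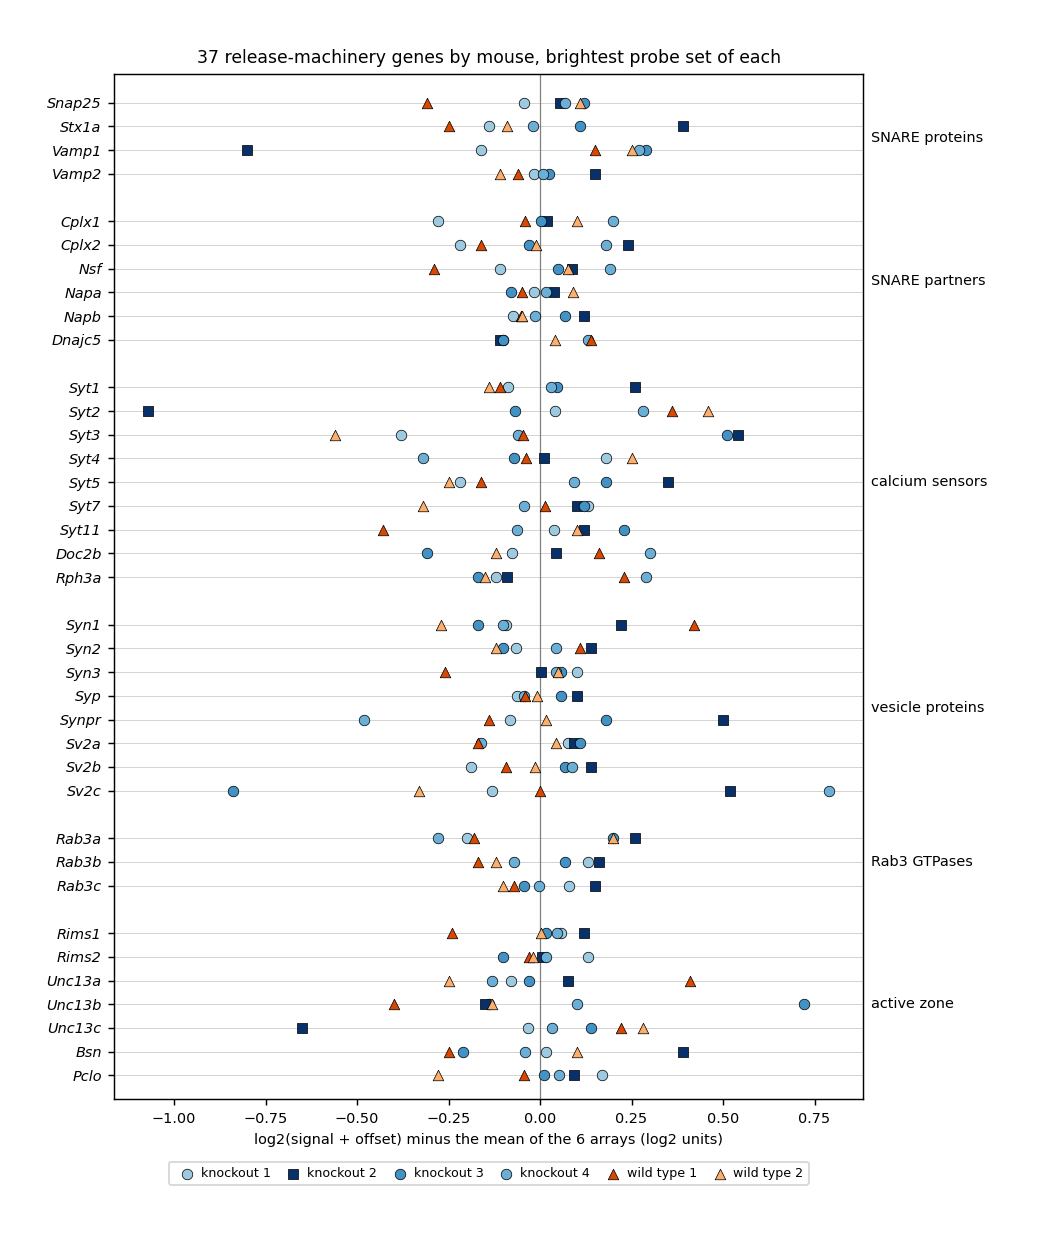
Each point is the log2(signal + offset) of 1 mouse at the brightest probe set of a gene, minus the mean of the 6 arrays, with the genes grouped by role; circles and squares are knockouts and triangles are wild types. Knockout 2 (dark squares) lies far to the left at Vamp1, Syt2 and Unc13c and is the highest of the 6 arrays at 16 of the 37 genes.

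The sequences around the transcription starts of Vamp1, Syt2 and Unc13c are shown, from 250 bases before to 50 bases after each start (RefSeq, GRCm38.p6), 5′ to 3′ on the gene's strand. The genes were picked for their low signal in knockout 2. The sequences are those of the reference genome and were not read from these mice, so they cannot bear on that signal. Capitals mark the GC box GGGCGG on either strand, the core recognised by Sp-family factors. The windows are chr6:125215331-125215630 (+) for Vamp1, chr1:134646362-134646661 (+) and chr1:134709050-134709349 (+) for the upstream and downstream starts of Syt2, and chr9:73968988-73969287 (-) for Unc13c.
Vamp1: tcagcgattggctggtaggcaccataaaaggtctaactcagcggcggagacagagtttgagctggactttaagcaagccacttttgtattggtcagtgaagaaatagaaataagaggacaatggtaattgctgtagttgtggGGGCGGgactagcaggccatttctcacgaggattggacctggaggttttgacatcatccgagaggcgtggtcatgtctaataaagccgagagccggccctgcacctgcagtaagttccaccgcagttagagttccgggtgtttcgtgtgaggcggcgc
Syt2 upstream start: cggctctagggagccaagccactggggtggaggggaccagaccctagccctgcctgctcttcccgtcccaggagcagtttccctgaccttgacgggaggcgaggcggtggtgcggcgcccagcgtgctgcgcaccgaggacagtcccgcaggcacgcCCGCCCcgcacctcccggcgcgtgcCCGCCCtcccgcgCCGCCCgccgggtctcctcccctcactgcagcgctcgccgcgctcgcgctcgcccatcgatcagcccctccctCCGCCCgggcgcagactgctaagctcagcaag
Syt2 downstream start: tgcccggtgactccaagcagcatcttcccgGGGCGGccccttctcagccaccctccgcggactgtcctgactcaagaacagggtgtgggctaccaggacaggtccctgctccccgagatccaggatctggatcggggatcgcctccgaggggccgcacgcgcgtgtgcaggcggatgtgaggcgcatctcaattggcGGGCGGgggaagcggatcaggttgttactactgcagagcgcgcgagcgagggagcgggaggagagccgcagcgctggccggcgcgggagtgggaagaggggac
Unc13c: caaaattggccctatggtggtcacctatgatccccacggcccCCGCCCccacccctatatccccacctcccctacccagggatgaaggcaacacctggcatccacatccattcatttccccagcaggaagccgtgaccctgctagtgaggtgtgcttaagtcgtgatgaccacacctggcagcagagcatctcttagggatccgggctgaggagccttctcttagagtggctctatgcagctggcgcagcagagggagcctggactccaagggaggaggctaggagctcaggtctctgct
The Vamp1 and Unc13c windows held 1 match each, and the Syt2 windows 4 and 2. Their G and C content was 51.7% at Vamp1, 59.3% at Unc13c, and 74.3% and 68.3% at Syt2. Of the 38 windows found for 28 of the 37 members, 23 held the motif, or 60.5%, beside 35.7% of all 32851 windows. A match is a description of the letters only.

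Among the SNAREs, Vamp1 (synaptobrevin 1, the vesicle SNARE) read, in knockouts 1 to 4, 9179, 5904, 12556 and 12431, and in the 2 wild types 11452 and 12214. Knockout 2 was low, knockout 1 was next, and the other 2 knockouts lay above both wild types. Its log2 fold change was -0.30 (SE 0.27; limma adjusted p = 0.826), and -0.069 without knockout 2. Its dim second probe set had its lowest signal in knockout 2 as well, 17.7 against 78.9 to 239.0 elsewhere. The paralogue Vamp2, the main synaptobrevin of the forebrain, read 15736, 17690, 16206 and 16019 in the knockouts and 15267 and 14799 in wild type. Here knockout 2 was the highest array and the groups did not overlap, with a log2 fold change of 0.12 (SE 0.13; limma adjusted p = 0.857).

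Snap25, the membrane SNARE with 2 helices in the complex, read 54355, 58246, 61027 and 58761 in the knockouts and 45275 and 60502 in wild type. Only wild type 1 was low, and the log2 fold change of 0.15 was -0.06 without that array. The dimmer probe set of Snap25 showed the same array apart, at 991.1 against 2081 to 2473 on the other 5, with a log2 fold change of 0.48 (limma adjusted p = 0.755). Stx1a (syntaxin 1A) was at 14836 ± 2415 (SD, n = 4) against 12336 ± 950 (SD, n = 2) on a probe set whose suffix, _x_at, marks probes shared with other transcripts. Its second probe set gave a similar log2 fold change, 0.30 beside 0.25.

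Most partners of the SNAREs lay close to 0. Napa and Napb, the SNAP adaptors, had log2 fold changes of -0.032 and 0.077 with standard errors of 0.12 and 0.13, and Cplx1 and Cplx2, the complexins, -0.048 and 0.13. At the brightest probe sets of these 4 genes the 95% intervals reached at most 0.49 in size. They were wider on others: a second Cplx2 probe set read 8074, 11320, 11425 and 12995 against 4653 and 10355, with 0.63 and an interval from -0.0087 to 1.27. Its groups overlapped, and wild type 1 was the lowest array. Nsf, the ATPase that separates SNARE complexes, read 28826, 33111, 32255 and 35480 in the knockouts and 25465 and 32829 in wild type, a log2 fold change of 0.16, or -0.022 without wild type 1. A dimmer Nsf probe set read 6672, 7332, 5769 and 5554 against 4908 and 5100 with no overlap. Its log2 fold change was 0.33 (limma adjusted p = 0.738), 0.25 without knockout 2 and 0.30 without wild type 1. A dim Nsf probe set below the filter had -0.043.

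Napb had 6 probe sets, the most of any member together with Syn2. Among the knockouts the brightest ran from 14603 to 16757, the second from 14141 to 16479, and the third, 1450888_at, from 10543 to 11482. On 1450888_at the knockouts all lay above the wild types, which read 9477 and 9669. Its log2 fold change was 0.18 (limma adjusted p = 0.777), beside -0.086 on the second. A pair of less bright ones split the knockouts instead: 1427470_s_at read 9912, 11696, 7872 and 5664, and 1452444_at 5683, 5901, 4324 and 2972. Wild types read 5536 and 9200 on the first of the pair, so the spread within each group was larger than the difference between them. Dnajc5 (cysteine string protein, a vesicle co-chaperone) read 8486, 8413, 8506 and 9977 against 9997 and 9371 at its brightest probe set. Knockout 4 alone lay with the wild types, and the log2 fold change was -0.13 (SE 0.13).

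The calcium sensors held both ends of the range, Syt2 and Syt3. Syt2, a fast synaptotagmin, read 2290, 1029, 2119 and 2719 in the knockouts and 2858 and 3079 in wild type. All 4 knockouts lay below the wild types, and knockout 2 lay more than 1 log2 unit below every other array, as it did at 0.649% of all genes. The log2 fold change was -0.61 (SE 0.31, 95% interval -1.30 to 0.076; limma adjusted p = 0.743), and -0.32 without knockout 2 (limma adjusted p = 0.814). The groups overlapped at its 2 dimmer probe sets, with log2 fold changes of -0.0072 and 0.14, and there knockout 2 read 387.9 and 212.1 against 354.8 to 565.4 and 218.7 to 313.8.

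Syt1, the major sensor of fast release in the forebrain, read 29308, 37225, 32155 and 31828 against 28955 and 28309. Every knockout lay above both wild types, with knockout 2 the highest, and the log2 fold change was 0.18 (SE 0.17; limma adjusted p = 0.829). Syt3, a high-affinity synaptotagmin, read 520.2, 1030, 1003 and 660.8 against 668.1 and 452.4. Its groups overlapped, and its log2 fold change of 0.46 had a standard error of 0.29. Syt5 read 1564, 2349, 2073 and 1950 against 1632 and 1528, with knockout 1 between the wild types and the rest above them.

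Syt7, linked to asynchronous release and facilitation, read 6911, 6786, 6877 and 6127 against 6373 and 5042 at its brightest probe set, a log2 fold change of 0.23. Its second probe set went the other way, at -0.27. Syt4, a synaptotagmin with a degenerate calcium site, read 7512, 6688, 6319 and 5295 against 6472 and 7898, a log2 fold change of -0.16. On its other probe set the knockouts were close together, 4221, 4080, 4088 and 3950, and wild type read 7336 and 4441, which gave -0.48 with all arrays and -0.12 without wild type 1. Doc2b, a soluble calcium sensor, had log2 fold changes of -0.035 and -0.032 on its 2 probe sets.

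Syt11, which lacks calcium binding and acts in vesicle trafficking, had 5 probe sets. The brightest read 20465, 21645, 23328 and 19068 against 14792 and 21422, a log2 fold change of 0.24, or -0.024 without wild type 1. A dimmer one, 1429315_at, read 12243, 13896, 15570 and 16483 against 7099 and 13131, with 0.58 and, without wild type 1, 0.14. The other 3 Syt11 probe sets were negative, from -0.33 to -0.074, so that the sign differed by probe set within the gene.

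Most vesicle membrane proteins had small estimated differences between the groups at their brightest probe sets. Syp (synaptophysin), at 17568 ± 970 (SD, n = 4) against 17090 ± 284 (SD, n = 2), had a log2 fold change of 0.038 and a 95% interval from -0.27 to 0.34. Its much dimmer other probe set gave 0.54 with an interval from -0.44 to 1.53. The SV2 proteins, glycoproteins of all synaptic vesicles, gave 0.094 for Sv2a and 0.08 for Sv2b. Sv2c lay below the filter on dim probe sets, the 1 member to do so at its brightest probe set, with signals of 10.9 to 137.0, so its value of 0.25 with an interval from -0.77 to 1.26 carries little. Synpr (synaptoporin) read 4409, 6617, 5298 and 3339 against 4246 and 4716. Its knockouts spread on both sides of the wild types, knockout 2 being the highest and knockout 4 the lowest.

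The synapsins tether vesicles to actin and to each other. Syn1 read 8334, 10341, 7892 and 8311 against 11924 and 7362, and the 2 wild types bracketed all knockouts, with a log2 fold change of -0.11, or 0.23 without wild type 1 and -0.46 without wild type 2. Syn3 had 0.16. Syn2 read 8588, 9878, 8362 and 9261 against 9692 and 8288 at its brightest probe set, a log2 fold change of 0.0064. On its second brightest the groups did not overlap, at 7466, 9541, 6783 and 7649 against 5607 and 6303, with 0.39 (limma adjusted p = 0.738). Another Syn2 probe set without overlap gave 0.41 and the 2 dim ones -0.17 and -0.14.

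The Rab3 GTPases recruit effectors to the vesicle. Rab3b read 3194, 3255, 3045 and 2766 against 2570 and 2671, and Rab3c 14118, 14793, 12968 and 13334 against 12725 and 12431. Neither gene's groups overlapped. The log2 fold changes were 0.22 and 0.13 with standard errors of 0.12 and 0.13 (limma adjusted p = 0.750 and 0.843), and 0.19 and 0.10 without knockout 2. Rab3a, the most studied of the family in vesicle release, had -0.015 on its brightest probe set, an _x_at one, and 0.15 on the other.

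At the active zone, Unc13c (Munc13-3, a priming factor) read 5479, 3544, 6203 and 5734 in the knockouts and 6559 and 6837 in wild type. The knockouts all lay below, knockout 2 furthest, with a log2 fold change of -0.38 (SE 0.20; limma adjusted p = 0.745), and -0.21 without knockout 2. Its second probe set also had its lowest signal in knockout 2, 1068, but overlapped between groups. A dim one went the other way, at 422.4, 237.0, 254.9 and 261.8 against 10.4 and 222.7, with a log2 fold change of 1.40, which was 0.31 without wild type 1 and 0.72 with 4 times the offset. Unc13a and Unc13b, the Munc13 genes of most forebrain synapses, had -0.12 and 0.39 with standard errors of 0.19 and 0.25.

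Pclo (piccolo) read 8696, 8244, 7794 and 8019 against 7503 and 6348, and Rims1, a RIM scaffold, 12274, 12829, 11922 and 12185 against 9942 and 11812. All knockouts lay above both wild types for each gene, though for Rims1 by little over wild type 2. The log2 fold changes were 0.24 and 0.18 (SE 0.13 for each; limma adjusted p = 0.743 and 0.794). Without wild type 1 that of Rims1 was 0.058, and without wild type 2 that of Pclo was 0.12. Other probe sets of both genes were negative, -0.25 and -0.0069 for Pclo and -0.16 for Rims1. Rims2 gave 0.036 with an interval from -0.23 to 0.30, and Bsn (bassoon) 0.11 at the brightest probe set. The dimmer probe sets of Bsn gave 0.58 and -0.18, each with an interval that included 0.

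**Figure D2:**
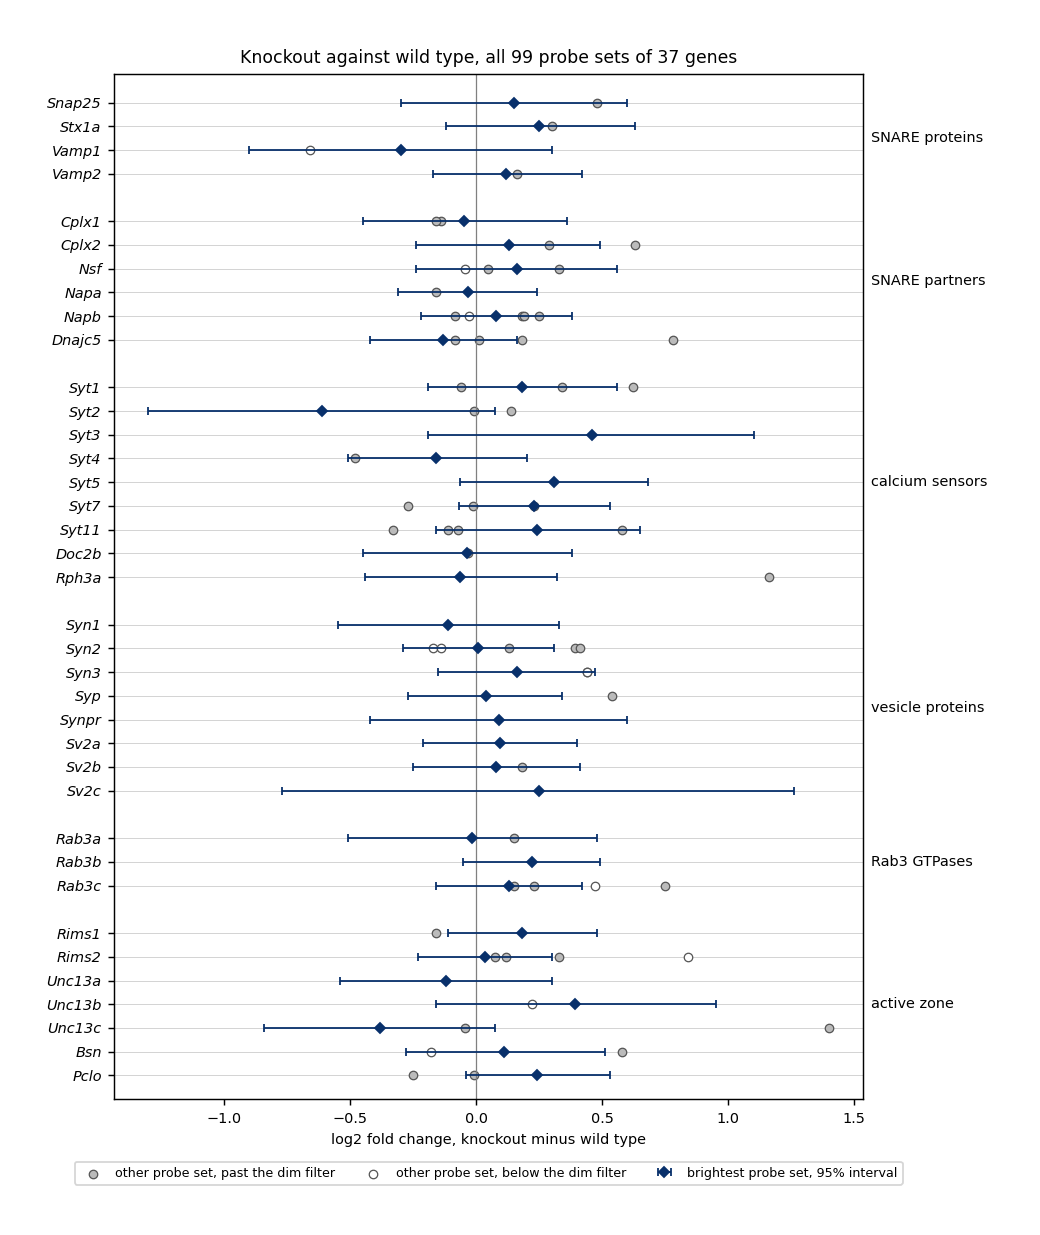
The log2 fold change, knockout minus wild type, is shown for all 99 probe sets of the 37 genes: diamonds with 95% intervals are each gene's brightest probe set, and circles are the others, open where below the dim filter. All 37 intervals of the brightest probe sets include 0. A single circle each of Rph3a, Dnajc5, Rab3c and Unc13c lies far to the right of the diamond, and any other circles of these genes lie nearer to it. After median centring only 9 of the 37 diamonds would lie above 0.

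The low signals in knockout 2 were read beside the region markers on the same arrays. Vamp1, Syt2 and Unc13c had their lowest signal there, as did Dnajc5 by a small margin, while 16 of the 37 members, or 43.2%, had their highest, beside 14.9% of all genes. The 16 were Stx1a, Vamp2, Cplx2, Napb, Syt1, Syt3, Syt5, Syn2, Syp, Synpr, Sv2b, Rab3a, Rab3b, Rab3c, Rims1 and Bsn. Knockout 2 was also the highest array at 12 of 49 other release genes (24.5%) and 3 of 13 general neuronal markers. It was so at 1 of 30 vesicle recycling genes and 1 of 15 vesicle proton pump genes. In that mouse the granule cell and Purkinje cell lists were at -2.32 and -2.18 log2 units relative to the mean of the 6 arrays, against 0.0024 to 0.63 and 0.11 to 0.56 in the others. The striatal list and the cortex and hippocampus list were at 0.45 and 0.35, each the highest of the 6 arrays. The part of these regions in the members' values was not tested. Without knockout 2 the median of the members was 0.045 beside 0.029 over all genes, and 22 of 37 were higher in the knockout.

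**Figure D3:**
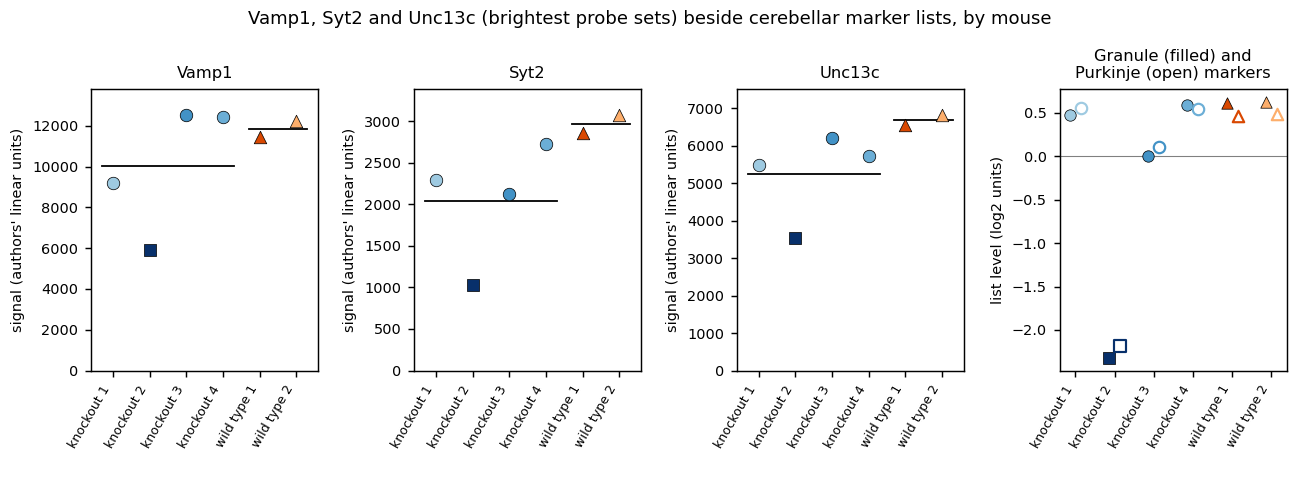
The panels on the left give the signal of Vamp1, Syt2 and Unc13c (brightest probe set, linear scale from 0) in each mouse, with bars at the group means; the right panel gives the level of the cerebellar granule cell (filled) and Purkinje cell (open) lists in log2 units relative to the mean of the 6 arrays. Knockout 2 is lowest in all 4 panels, at 5904, 1029 and 3544 and at -2.32 and -2.18.

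The differences with the smallest p lay on dimmer probe sets, and in each case the brightest one of the same gene gave a smaller difference. Rph3a encodes rabphilin, a Rab3 effector. Its dimmer probe set read 1360, 1608, 1244 and 1786 in the knockouts and 472.3 and 856.7 in wild type, with no overlap and a log2 fold change of 1.16 (SE 0.23; limma adjusted p = 0.738). Its brighter probe set read 8180, 8336, 7891 and 10894 against 10440 and 8028, with -0.065 (SE 0.17). Leaving out wild type 1 gave 0.76 for the dimmer one, and leaving out wild type 2 gave 1.56.

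Dnajc5 showed the same split. Of its 5 probe sets, 1448851_a_at read 1651, 1539, 1286 and 1153 against 569.0 and 1095, a log2 fold change of 0.78, and the 3 brighter ones had -0.13, -0.083 and 0.012. For Rab3c, the second probe set read 1120, 1298, 1546 and 1393 against 582.8 and 1010, with 0.75 beside 0.13 on the brightest. For Syt1, the least bright read 1050, 1175, 868.6 and 927.3 against 546.6 and 726.3, with 0.62 beside 0.18, while its second gave -0.06. Wild type 1 was the lowest array on all 3, and without it the log2 fold changes were 0.33, 0.38 and 0.43.

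**Figure D4:**
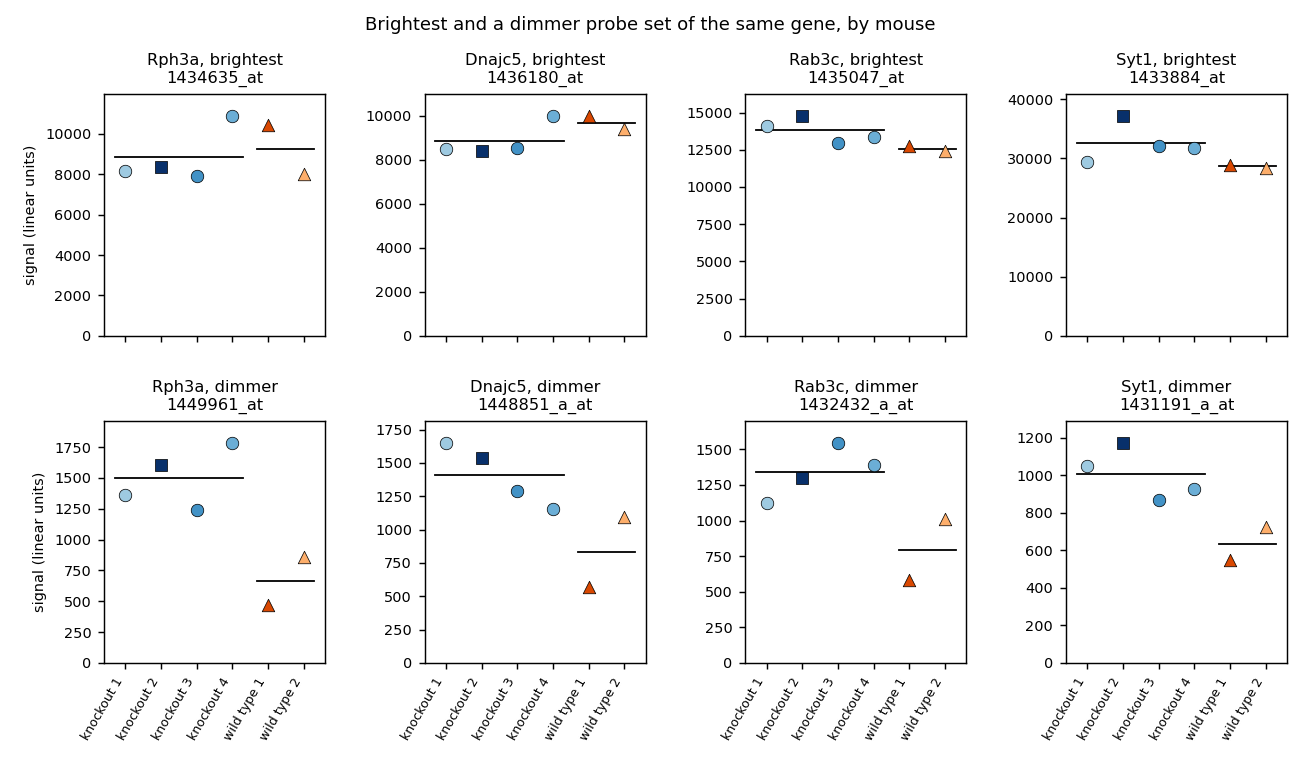
Signals on a linear scale from 0 are shown by mouse for the brightest probe set (upper row) and a dimmer one (lower row) of Rph3a, Dnajc5, Rab3c and Syt1, with bars at the group means. In the lower row wild type 1 is the lowest array in every panel and the groups do not overlap; in the upper row the groups do not overlap for Rab3c and Syt1 either, and the log2 fold changes run from -0.13 to 0.18.

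A dim Rims2 probe set below the filter was the 1 case among these 10 with its lowest signal in wild type 2, at 105.7, 101.4, 120.3 and 71.1 against 53.3 and 16.8. Its log2 fold change of 0.84 was 0.35 with 4 times the offset and 1.33 with 0.25 times, so its size depended on the offset. Of the 29 members with several probe sets, 14 had values of both signs, 10 were higher on all and 5 lower on all. The 5 were Vamp1, Cplx1, Napa, Syt4 and Doc2b. These signs hold for the authors' scaling.

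Other genes of the pathway were measured from 3 further lists. Of 49 other release genes, 21 were higher and 28 lower in the knockout, with a median of -0.031, 0 past the threshold in limma and 3 at an unadjusted p below 0.05, or 6.1% beside 6.49% of all genes. Those 3 were Nlgn1, a postsynaptic adhesion protein, Syngr2 and the SNARE Snap29, with log2 fold changes of 1.05, -0.45 and 0.52. Nlgn1 read 674.3 in wild type 1 and 2108 to 3037 on the other arrays. Of 30 genes of vesicle recycling, which retrieve membrane by clathrin and dynamin, 8 were higher and 22 lower, with a median of -0.078. In limma 0 passed, with 1 at an unadjusted p below 0.05, Dnm2, the widely expressed dynamin, at 0.67. Ap2m1, the adaptor subunit that binds cargo, read 13518 in wild type 1 and 7185 to 8152 in the knockouts, with wild type 2 at 7869. Of 15 subunits of the vesicle proton pump, which drives transmitter loading, 7 were higher and 8 lower, with a median of -0.052 and 0 past either limit in limma. The general neuronal markers had a median of 0.073 over 13 genes, 7 of them higher.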

How the data were processed

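Signals were analysed for 6 arrays, 1 per mouse, grouped by the labels alone; the numbers of the mice follow the order of deposit. The table holds the authors' signal intensity, 1 linear value per probe set and array, from GCOS 1.3 per the submitters' processing notes; how probes were summarised, called and scaled is not stated in the sources used here. Every array had the same trimmed mean, 1000.0. After 64 control probe sets were left out, the 20th percentile of the table, 49.6, was added and log2 taken. Knockout was set against wild type by lmFit and eBayes of limma 3.58.1 (R 4.3.3), with an intensity trend, without a dim filter, adjusting by Benjamini-Hochberg over 45037 probe sets with a threshold of 0.05. Of these, 34945 had 1 gene symbol from the platform annotation, 932 several and 9160 none. The dim filter, an alternative, dropped the dimmest 40% of probe sets by mean log2 signal and kept 88 of the 99 members.

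Every member is accounted for. Values by mouse are given for those whose groups did not overlap at the brightest probe set, the 5 smallest p in each direction, those with an array over 1 log2 unit from all others, and those with opposite signs among probe sets and an unadjusted p below 0.05 on one. Members and lists were chosen with earlier results of these data known. A list level averages its genes' log2 signals after the 6-array mean of each gene is subtracted. The small number of arrays limits the precision: an exact permutation of 4 against 2 mice cannot reach a p under 0.0667. Each mouse is a separate animal, so p-values measure the spread between animals and arrays together. Plots were drawn in Python 3.11.15.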

Additional observations from a re-analysis of the deposited data

Results flagged for a closer look

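Among the 4 knockouts, knockout 4 lay far from the other 3 at the brightest probe set of 4 members. The gap to its nearest neighbour was 0.936 of the range of the knockouts for Dnajc5 and 0.830 for Rph3a, where it was the highest, and 0.848 for Syt7 and 0.864 for Sv2a, where it was the lowest; for 4 samples each is above Dixon's 95% limit. Chance flags about 1 in 20 such groups, and 6.41% of all genes met the same limit. Dnajc5 and Rph3a in knockout 4 read 9977 and 10894, close to wild type 1 at 9997 and 10440. For Sv2a, knockout 4 read 8107, close to 8049 in wild type 1, and for Syt7 it read 6127, between the wild types.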

How the results depend on the processing

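No paired analysis was possible because the labels give no replicate numbers shared between the groups. The count of called members was 0 under all planned settings except without wild type 2, where 3 of the 99 passed in limma, beside 171 of all 45037 probe sets (0.380%). The wild-type arm is then the single array wild type 1, whose spread is not measured and is assumed to be like that of the knockouts. The 3 were the dimmer probe sets of Snap25 (1.12, adjusted p = 0.0323), Rph3a (1.56, 0.0362) and Syt4 (-0.84, 0.0489). Leaving out 1 array in turn gave 0 to 3 called members, 4 to 20 below an unadjusted p of 0.05, beside 3.61% to 11.8% of all probe sets, 8 to 19 genes without overlap, beside up to 52.8% of all genes, 22 to 27 genes higher in the knockout, and medians from 0.045 to 0.12. Below an unadjusted p of 0.05 in limma there were 6 of the 99 member probe sets without the intensity trend, beside 6.84% of all probe sets. The count was 14 after quantile normalisation, beside 5.92%, and 12 with 0.25 times the offset, beside 7.15%. After median centring it was 9, beside 8.76%. With the mean over the probe sets of a gene there were 2 of 37 genes, beside 6.82% of all genes, a count over genes and not comparable with the 10 of 99. Median centring gave a median of -0.12 and 9 genes higher. It subtracts 1 value per array, so every log2 fold change shifted by the same amount. The median of all genes went from 0.024 to -0.19. The cause of the other moves was not tested.

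Of 480 refits of single genes at the brightest probe set, 436 kept their direction and 44 turned, and 10 genes never turned. The turns after median centring come from the 1 shift shared by all genes and are not separate results. Log2 fold changes that turned were, after median centring, Snap25 -0.065, Vamp2 -0.089, Cplx2 -0.087, Nsf -0.053, Napb -0.14, Syt1 -0.031, Syn2 -0.21, Syn3 -0.058, Syp -0.18, Synpr -0.12, Sv2a -0.12, Sv2b -0.13, Rab3c -0.082, Rims1 -0.032, Rims2 -0.18, Bsn -0.10; after quantile normalisation, Snap25 -0.04; and as means over probe sets, Dnajc5 0.15, Rph3a 0.55, Rab3a 0.067, Unc13c 0.32, Pclo -0.0048. With 1 array left out, values that crossed 0 ranged from -0.06 to 0.36 for Snap25, from -0.12 to 0.041 for Cplx1, from -0.022 to 0.34 for Nsf, from -0.10 to 0.037 for Napa, from -0.024 to 0.51 for Syt11, from -0.17 to 0.10 for Doc2b, from -0.25 to 0.12 for Rph3a, from -0.46 to 0.23 for Syn1, from -0.11 to 0.12 for Syn2, from -0.066 to 0.26 for Synpr, from -0.012 to 0.20 for Sv2a, from -0.21 to 0.17 for Rab3a, from -0.0024 to 0.073 for Rims2, from -0.45 to 0.21 for Unc13a, from -0.064 to 0.29 for Bsn. Sv2c could not be tested with the dim filter, which it does not pass.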
